A study of Mus musculus with 6 samples.

Results

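The endothelin system was examined through 5 genes: the ligand genes Edn1 and Edn3, the receptor genes Ednra and Ednrb, and the converting enzyme gene Ece1. They were taken by symbol from a table of 45703 genes, and all 5 were found, each in 1 row. The table came from poly-A RNA sequencing of 6 replicate cultures grown from mouse dorsal root ganglia, which lie beside the spinal cord and hold the sensory neurons with their glia. All 6 belonged to a single group: wild type C57BL/6 mice aged 4 to 6 weeks, with ganglia digested in Liberase TH and Liberase TM at 0.6 U/ml each and cells grown on poly-L-lysine for 7 days. The medium was DMEM/F12 with 10% fetal calf serum, antibiotics, and EGF and FGF at 10 ng/ml, and RNA of 2 dishes was pooled for each sample. There was no untreated, uncultured or mutant group, so the values describe the culture itself and the differences between its replicates. The series calls them biological replicates, but the labels do not tie a culture to particular animals, so p-values speak only for these 6 samples.

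Endothelins are short peptides that act on neighbouring cells. They are cut from a longer precursor, first by furin-type proteases and then by the endothelin-converting enzyme, and they bind G protein-coupled receptors that raise calcium in the target cell. The receptor encoded by Ednra prefers endothelin-1 and is known from smooth muscle and connective tissue cells, whereas the receptor encoded by Ednrb takes all endothelins alike and is known from glia and other cells of neural crest origin.

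The ligand genes were compared in the part of the message that becomes the active peptide, and other parts were not compared. The 21 codons of the mature peptide were located in GENCODE M21 transcripts (GRCm38) by the spacing of their cysteine codons, and they lie in exon 2 of each gene. They are shown because 1 of these ligand messages was counted in every culture and the other was not. Capitals mark the bases at which the pair differs:
Edn1: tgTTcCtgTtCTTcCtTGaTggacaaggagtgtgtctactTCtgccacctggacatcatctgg
Edn3: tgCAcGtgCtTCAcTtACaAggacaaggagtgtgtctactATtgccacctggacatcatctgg
The Edn1 stretch lies at chr13:42303649-42303711 and the Edn3 stretch at chr2:174761749-174761811, both on the plus strand. Of 63 bases, 50 are the same (79.4%), and 8 of the 21 codons hold a difference. Most of the differing bases lie in the first part of the peptide, and the last codons, which encode its tail, are identical.

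The 6 libraries held 20070639 to 22968642 counts, with TMM scaling factors from 0.977 to 1.02. Counts are given as CPM, counts scaled to a library of 1000000, and genes are compared with each other only as CPM per kb of the gene's combined exon length. Replicates 1 and 5 were the lowest and the highest for fibroblast markers. The fibroblast marker list (6 genes, all at 1 CPM or more in every library) summed to 3338 CPM in replicate 1, 13967 CPM in replicate 5 and 4429 to 7446 CPM in the others. The glial lineage list (7 of 7 genes at that level) summed to 4414 CPM in replicate 5 and 5717 to 6497 CPM in the others. The neuron list (8 of 8 genes) ranged from 939 to 2000 CPM and the satellite glia list (4 of 4) from 957 to 1546 CPM, so the markers of the labelled tissue were present. The lists of mural cells (5 of 8 genes), endothelium (3 of 8), macrophages (5 of 7) and melanocytes (3 of 7) summed to 150.2 to 1205, 10.8 to 141.6, 14.1 to 125.6 and 17.3 to 39.1 CPM. In the melanocyte list, Dct, Tyr and Mlana had at most 3 counts in every library.

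Of the 5 endothelin genes, 4 reached at least 1 CPM in all 6 libraries, against 30.4% of all genes in the table. Per kilobase the order of mean levels was Ece1, Ednrb, Ednra, Edn1 and Edn3. Ece1 and Ednrb were the abundant members, Ednra was the variable one, Edn1 was low, and Edn3 had at most 3 counts in any library.

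**Figure D1:**
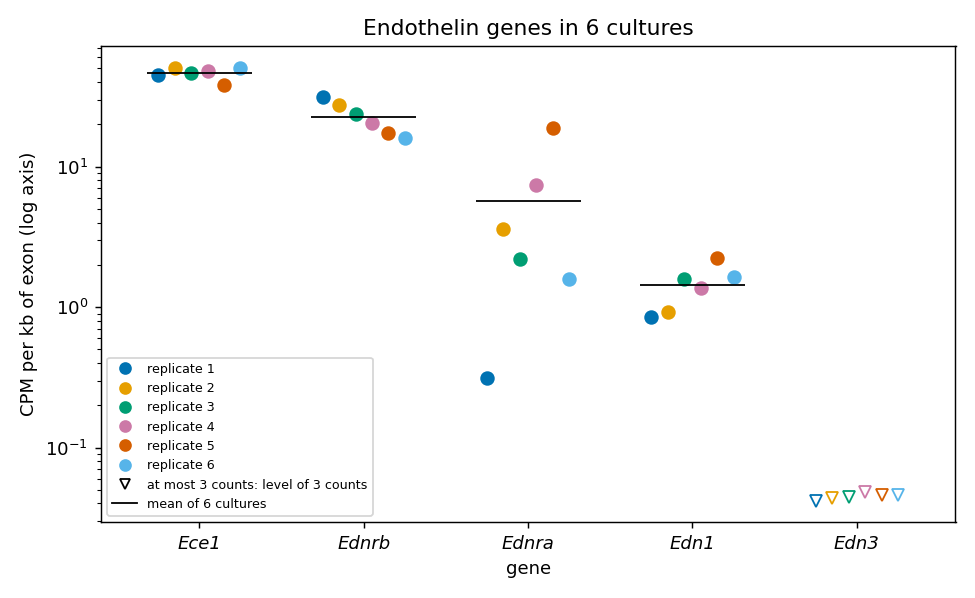
Level of each endothelin gene in CPM per kb of exon (log axis) in the 6 cultures, with black lines at the mean and open triangles at the level of 3 counts for libraries with 3 counts or fewer. Ece1 lies between 38.4 and 50.7, Ednra spreads from 0.311 to 18.9, and Edn3 has no library above 3 counts.

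Endothelin-1 is the ligand best known from blood vessels, where endothelial cells release it. Edn1 (chromosome 13, 42301476 to 42307990, plus strand, GRCm38.p6) was counted at 1.83, 1.96, 3.42, 2.94, 4.78 and 3.49 CPM in replicates 1 to 6. These levels rest on 42 to 100 counts per library. Replicate 5 was highest and replicates 1 and 2 were lowest, and the exact 95% Poisson interval of replicate 5 (3.89 to 5.81 CPM) did not overlap that of replicate 1 (1.32 to 2.47 CPM). Such intervals cover counting error only. The mean was 3.07 ± 1.10 CPM (SD, n = 6), or 1.43 ± 0.512 CPM per kb, which was above 12.2% of the 13911 genes that reached 1 CPM in all libraries.

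Endothelin-3 is the ligand needed with Ednrb for neural crest cells to form pigment cells and gut neurons. Edn3 (chromosome 2, 174760619 to 174784042, plus strand) had 0 counts in replicates 1, 2, 3, 4 and 6 and 3 counts in replicate 5. A count of 0 was given a limit of 3 counts, which is 0.131 to 0.149 CPM in these libraries. The exact 95% Poisson interval of a 0 count ends higher, at 0.161 to 0.184 CPM. Edn3 was thus not detected in 5 libraries at this depth and rested on 3 counts in replicate 5. Per kilobase, Edn1 was 20.4-fold to 35.9-fold above the level of 3 Edn3 counts in the 5 libraries without an Edn3 count. These folds leave out the counting error of Edn1, and they would be lower against the upper end of the Poisson interval. In replicate 5 the ratio of Edn1 to Edn3 was 48.6, from 100 and 3 counts (exact 95% binomial interval 16.1 to 239.5). At most 3 counts in every library was a common state, shared by 54.7% of all genes in the table. The remaining ligand gene, Edn2, had at most 2 counts in any library.

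Ednra (chromosome 8, 77663029 to 77724452, minus strand) was counted at 1.13, 13.1, 8.03, 26.9, 68.9 and 5.78 CPM in replicates 1 to 6. It was highest in replicate 5, next in replicate 4, and lowest in replicate 1, where the level rests on 26 counts. The highest library was 60.9-fold above the lowest, with a mean of 20.7 ± 25.3 CPM (SD, n = 6). Replicate 5 sets much of that mean, which was 11.0 CPM without it. Even among the other 5 cultures Ednra ran from 1.13 to 26.9 CPM.

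Ednrb (chromosome 14, 103814615 to 103844508, minus strand) was counted at 138, 120.4, 103, 90.3, 76.4 and 69.8 CPM in the same libraries. Replicate 1, lowest for Ednra, was highest for Ednrb, and replicate 6 was lowest. The range was 1.98-fold and the mean 99.8 ± 26.3 CPM (SD, n = 6), a relative spread of 26.4% against 122% for Ednra. Ednrb was high in replicates 1 and 2, where Edn1 was low.

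Set against each other per kilobase, Ednrb exceeded Ednra in 5 of 6 cultures. Ednrb made up 99.0% of the summed receptor level in replicate 1, 88.4% in replicate 2, 91.4% in replicate 3, 73.6% in replicate 4, 47.9% in replicate 5 and 90.9% in replicate 6. The mean difference was 2.85 ± 2.14 (SD, n = 6) on the scale log2(CPM per kb + 0.1). This difference did not pass (two-sided exact sign-flip permutation p = 0.0625, adjusted p = 0.0694 over 10 pairs). The smallest p that this test can give with 6 libraries is 0.03125. In replicate 5 the Poisson intervals of the receptors overlapped, at 18.0 to 19.9 CPM per kb for Ednra and 16.6 to 18.3 for Ednrb. With no length scaling Ednrb was higher in all 6 libraries and the exact permutation adjusted p was 0.0347, so the call depends on the exon lengths of 4387 and 3643 bases. The summed receptor level moved less than Ednra, from 17.5 CPM per kb in replicate 6 to 36.3 in replicate 5.

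**Figure D2:**
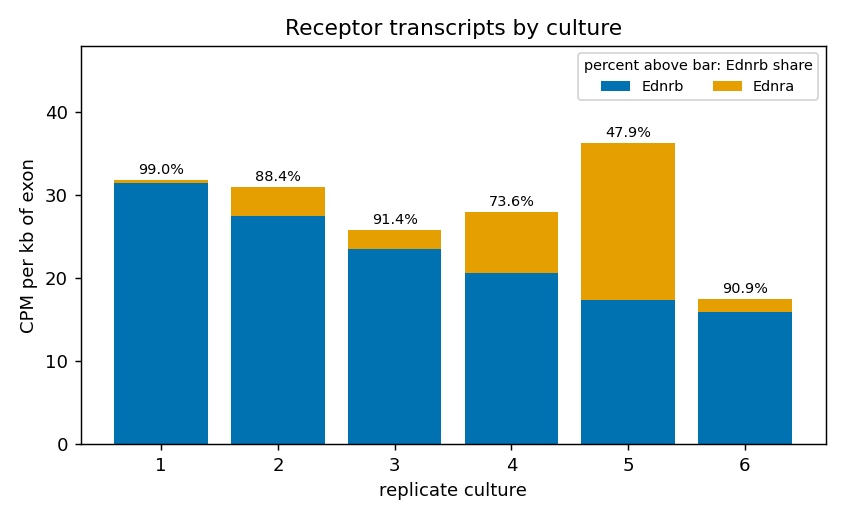
Stacked bars of Ednrb and Ednra in CPM per kb of exon for each replicate culture, with the Ednrb share of the sum above each bar. The share is 99.0% in replicate 1 and 47.9% in replicate 5, and the sum lies between 17.5 and 36.3.

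The converting enzyme had the smallest range of the 4 detected members. Ece1 (chromosome 4, 137862237 to 137965229, plus strand) encodes the membrane metalloprotease that cuts the inactive precursor to the active peptide. Its counts came to 229.5, 259.6, 239, 246, 196 and 257 CPM in replicates 1 to 6. Replicate 5 was lowest, and the highest library was 1.32-fold above it. The mean was 238 ± 23.3 CPM, or 46.5 ± 4.55 CPM per kb (SD, n = 6), above 90.0% of the genes that reached 1 CPM in all libraries. Counts of Ece1 were fractional in 6 libraries and those of Ednrb in 3, so some reads may have been divided between features. Antisense RNA genes overlap Ece1, Ednrb and Ednra, and none of these overlapping genes exceeded 0.239 CPM in any library.

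The order of levels was tested within libraries over all 10 pairs of members. Among neighbours in the order, Ece1 exceeded Ednrb by 1.06 ± 0.381 (log2, SD, n = 6) and was higher in 6 of 6 libraries (p = 0.0312 by exact sign-flip permutation, the smallest possible, and 0.0391 after adjustment). Ednra and Edn1 did not differ beyond their spread, with a difference of 1.07 ± 1.61 and Ednra higher in 4 of 6 libraries (p = 0.188 by exact sign-flip permutation, and 0.188 after adjustment). Ednra was below Edn1 in replicates 1 and 6. Edn1 exceeded the limit for Edn3 in 6 of 6 libraries, with the same adjusted p of 0.0391 (exact sign-flip permutation). All pairs that were not neighbours passed at that value too. In pairs with Edn3, set to at least 3 counts per library, p only restates that the other member was above this limit. These pairs are also among the 10 over which p was adjusted. Ece1 was 17.2-fold to 55.4-fold above Edn1, and Ednrb 7.80-fold to 36.9-fold above Edn1. With any 5 libraries the smallest possible p is 0.0625, so no pair can pass.

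Spread between cultures was then compared with counting noise and with other genes. Set against TMM-scaled library sizes by a chi-square test, 4 of the 4 members tested varied beyond counting noise, against 76.3% of the 14998 genes kept by the low-count filter, so this share is not particular to them. Edn3 did not pass the filter. The statistic was 285 for Ece1 (Benjamini-Hochberg adjusted p = 1.75e-58), 798 for Ednrb (adjusted p = 8.28e-169), 40.4 for Edn1 (adjusted p = 2.9e-07) and 3303 for Ednra, whose p was too small to be held as a number. The SD of log2(CPM + 0.5) after TMM scaling was 0.16 for Ece1, 0.39 for Ednrb, 0.44 for Edn1 and 1.85 for Ednra, and the median over the tested genes was 0.16. Only 6 of the 14998 genes had a larger SD than Ednra.

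Against genes of similar abundance, edgeR's quasi-likelihood fit gave Ednra a residual dispersion 137-fold above the fitted trend (unadjusted p = 0.00267, adjusted p = 0.844). The ratio was 13.1 for Ednrb (edgeR unadjusted p = 0.0464, adjusted p = 0.918), 3.50 for Edn1 and 1.57 for Ece1. With this test 0% of genes passed an adjusted p of 0.05 and 5.39% had an unadjusted p under 0.05, which is 809 genes. With DESeq2 size factors 0 genes passed and 814 had an unadjusted p under 0.05. None of the endothelin genes was called, which does not show that they varied alike.

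The level of each member was set beside marker lists of the glial lineage, fibroblasts and endothelium, 15 relations in all. The lists were chosen with earlier results of these data known, so the p-values of these relations are not an independent test. List scores were the mean of log2(TMM-scaled CPM per kb + 0.1). Ednra followed the fibroblast list: Pearson's r was 0.98 (n = 6, exact permutation p = 0.00278, adjusted p = 0.0417), and none of the other 14 relations passed. Spearman's rho was 0.94 (exact permutation p = 0.0167, adjusted p = 0.25). Leaving out replicates 1 and 5, whose list scores were the most extreme, gave r = 0.92. With 5 libraries r lay between 0.971 and 0.999 whichever was left out, and the exact permutation adjusted p between 0.0833 and 0.208. A lone relation cannot pass the adjustment with so few pairings.

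Other lists moved in the same libraries. Between replicates 1 and 5 the summed mural markers went from 150.2 to 1205 CPM, the endothelial markers from 10.8 to 141.6 CPM and the macrophage markers from 14.1 to 125.6 CPM. Ednra with the endothelial list gave r = 0.85 and rho = 0.83 (n = 6, exact permutation p = 0.0292 and 0.0583, adjusted p = 0.109 and 0.292), and r = 0.62 without replicates 1 and 5. The part of mural and macrophage RNA in the level of Ednra was not tested. In bulk RNA, more cells of a type and more RNA per cell cannot be told apart. Ednra varied more than the sum of fibroblast markers: per 1000 CPM of that sum, Ednra stood at 0.339 CPM in replicate 1, 2.16 in replicate 2, 1.81 in replicate 3, 3.61 in replicate 4, 4.94 in replicate 5 and 1.21 in replicate 6.

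**Figure D3:**
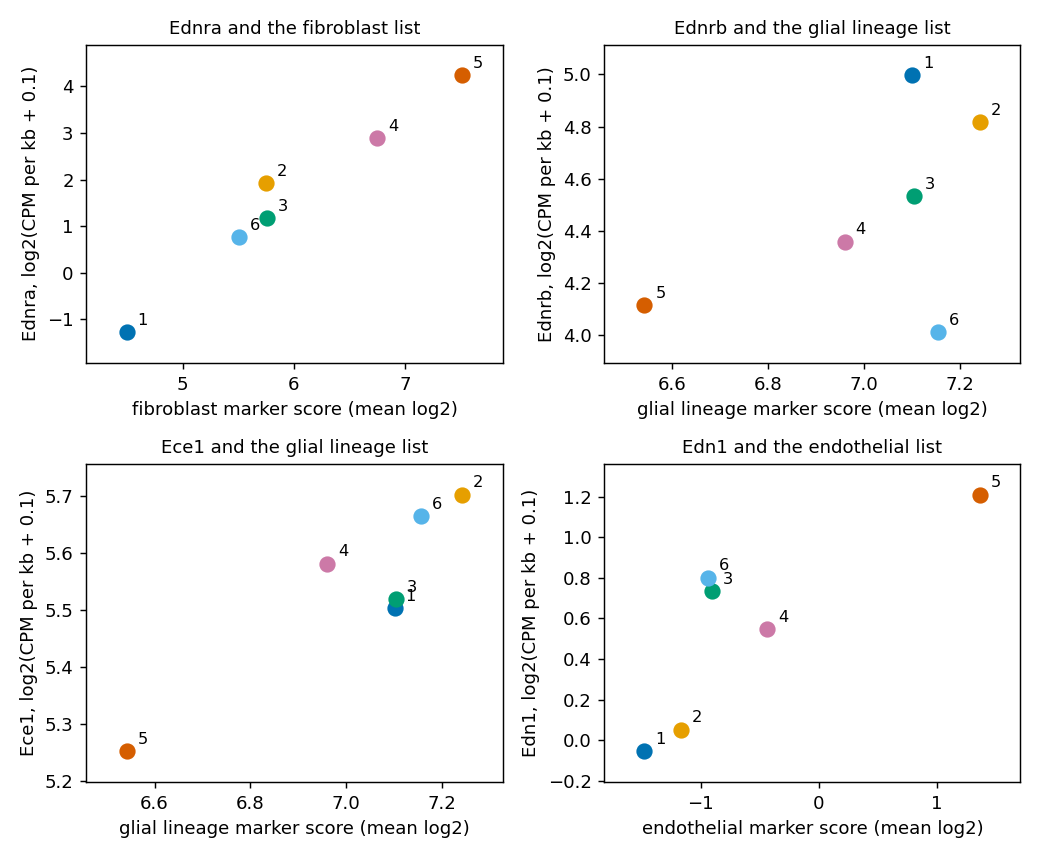
Each panel sets an endothelin gene, as log2(TMM-scaled CPM per kb + 0.1), against the score of a marker list in the 6 cultures, which are numbered by replicate. Ednra and the fibroblast score lie close to a line (r = 0.98), whereas Ednrb and the glial lineage score do not (r = 0.49).

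For the other members the relations failed the correction. Ednrb with the glial lineage list gave r = 0.49 and rho = 0.20 (n = 6, exact permutation p = 0.354 and 0.714, adjusted p = 0.354 and 0.714), and r was 0.0078 without replicates 4 and 5. Leaving out single libraries moved this r from 0.23 without replicate 5 to 0.83 without replicate 6. With the fibroblast and endothelial lists Ednrb gave r = -0.64 and -0.63, larger in size than with the glial lineage list. Replicate 6, lowest for Ednrb, had a glial lineage sum of 6173 CPM, within the range of the other cultures. Ece1 with the glial lineage list gave r = 0.91 and rho = 0.83 (exact permutation p = 0.0264 and 0.0583, adjusted p = 0.109 and 0.292), and r was 0.91 without replicates 4 and 5 but 0.58 without replicate 5 alone (exact permutation adjusted p = 0.717). With the fibroblast and endothelial lists Ece1 gave r = -0.54 and -0.80. Per 1000 CPM of the glial lineage sum Ece1 ranged from 35.4 to 44.5 CPM, a 1.26-fold range. Edn1 with the endothelial list gave r = 0.81 and rho = 0.77 (exact permutation p = 0.0236 and 0.103, adjusted p = 0.109 and 0.385), and r fell to 0.40 without replicates 1 and 5. With the fibroblast and glial lineage lists Edn1 gave r = 0.75 and -0.71, of similar size, so its relation was not particular to the endothelial list. The endothelial sum varied 13.1-fold between cultures and Edn1 2.61-fold. Values for Edn3 rest on the 3 counts of replicate 5 and are not described. No batch is named in the labels, and within-batch values were therefore not possible.

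The genes whose pattern over the 6 libraries was most like that of each member are given as a description. They were sought among 10264 genes with a mean of at least 10 CPM. For Ednra they were Gxylt2, an enzyme that adds xylose to secreted and membrane proteins (r = 0.999), Cd80, a costimulatory ligand known from antigen-presenting cells (r = 0.997), and Vcan, a large matrix proteoglycan (r = 0.996). In replicate 1 Vcan stood at 18.0 CPM and in replicate 5 at 347 CPM, and the matching values of Cd80 were 1.70 and 47.6 CPM. In all, 215 genes (2.09% of those searched) had r above 0.95 with Ednra. For Ednrb they were Pex5, the import receptor of peroxisomes (r = 0.99), Col27a1, a fibrillar collagen chain (r = 0.99), and Cdip1, a p53 target (r = 0.99). Col27a1 ranged from 292 to 582 CPM, and 40 genes (0.390%) had r above 0.95.

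For Ece1 the closest genes were Jam3, a junctional adhesion molecule, Reck, a membrane-bound inhibitor of matrix metalloproteinases, and Cox6a1, a respiratory chain subunit, each with r = 0.99. All were lowest in replicate 5, as Ece1 was. For Edn1 they were Tgfb2, a growth factor of the TGF-beta family, Plxna2, a semaphorin receptor, and Tmsb10, an actin-binding peptide, with r = 0.99, 0.99 and 0.98. The lowest level of Tgfb2 was 6.84 CPM, in replicate 1, and the highest 28.7 CPM, in replicate 5.

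The other genes of the pathway were mostly present. Of 30 genes listed for processing, breakdown and signalling, 25 reached 1 CPM in all libraries, against 30.4% of all genes, and the 25 that were tested varied beyond counting noise, against 76.3%. The median level was 21.4 CPM per kb over the 30 genes and 0.0177 over all genes in the table, most of which had at most 3 counts in every library. It was 8.11 over the 13911 genes that reached 1 CPM in all libraries. The 5 others were Edn2, Kel, Mmel1, Cma1 and Plcb2, and Edn2, Kel and Mmel1 had at most 3 counts in every library.

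Among the other proteases listed for processing, which leave out Ece1, the highest was Furin, which makes the first cuts, at 188 ± 19.1 CPM or 35.9 ± 3.64 CPM per kb (SD, n = 6). Ece2, a related converting enzyme active at acid pH, reached 1.36 ± 0.380 CPM per kb against 46.5 for Ece1. Ecel1, a related protease induced in injured neurons, was named after its values were seen: it stood at 270.2 CPM in replicate 1, 176 in replicate 2, 91.0 in replicate 3, 79.7 in replicate 4, 74.1 in replicate 5 and 69.7 in replicate 6. Like Ednrb, Ecel1 fell at each step from replicate 1 to replicate 6. The labels do not say what the replicate order stands for, and a cause was not tested. Among proteases that break endothelins down, Ctsa, a lysosomal carboxypeptidase, was highest at 73.0 ± 4.93 CPM per kb.

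In the signalling classes, all 8 G protein alpha subunits were present. Gnai2, of the class that inhibits adenylyl cyclase, was highest at 263 ± 14.3 CPM per kb. Of the phospholipase C genes that the receptors drive through Gq, 3 of 4 reached 1 CPM in all libraries, with Plcb3 highest at 27.3 ± 1.40 CPM per kb. All 3 receptors for inositol trisphosphate, which release calcium, were present, with Itpr3 highest at 43.2 ± 7.82 CPM per kb. The 6 genes for receptor kinases and arrestins, which switch receptors off, were present, and Grk2 was highest at 25.5 ± 1.96 CPM per kb (SD, n = 6 for each).

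**Figure D4:**
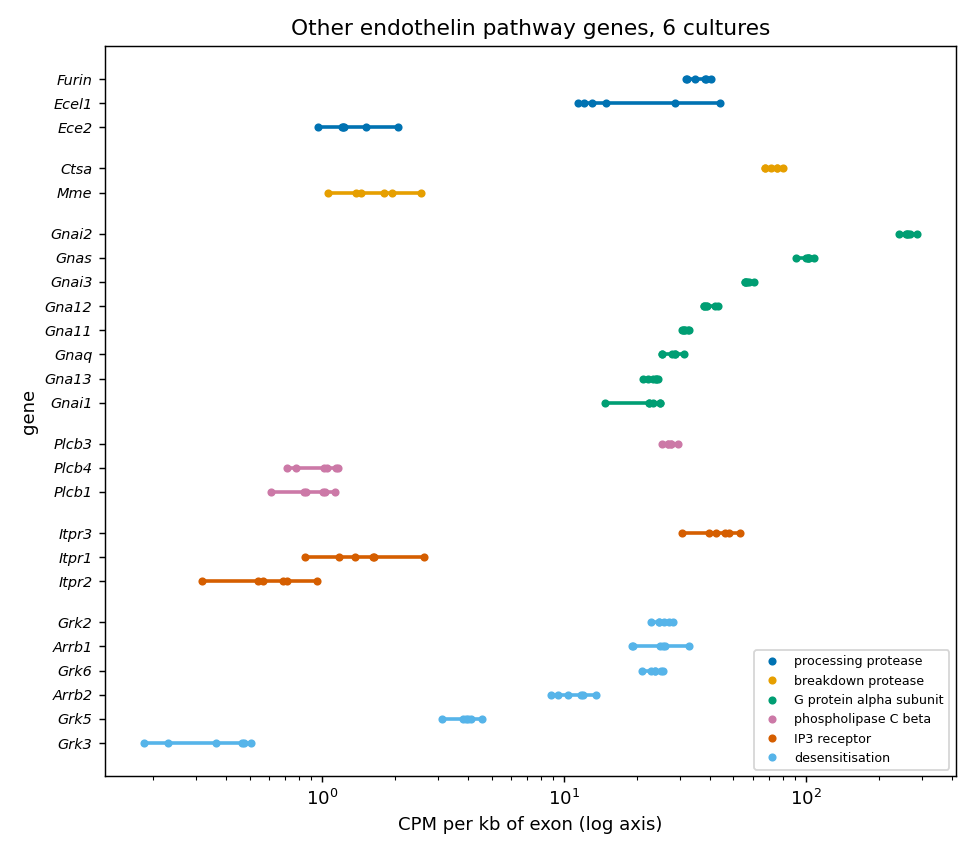
Levels of the 25 other pathway genes that reached 1 CPM in all 6 libraries, in CPM per kb of exon (log axis), grouped by role, with a point per culture and a line over the range. Gnai2 is highest at a mean of 263, and Ecel1 spreads more widely than Furin.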

How the data were processed

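The authors deposited one table of estimated counts per gene, unscaled, for the 6 cultures, with the combined exon length of each gene. Between 13.4% and 14.7% of values per library were not whole (tolerance 1e-06). Per the submitters' processing notes, bcl2fastq 2.20.0.422, cutadapt 2.5, STAR 2.7.2b and featureCounts 1.6.4 were used with GRCm38.p6. Their settings, strand included, are not given in the sources used here. Per the labels' protocols, RNA integrity numbers were at least 8.7 and libraries were made from 500 ng of RNA with a stranded kit and 15 PCR cycles. All 5 gene positions were identical to RefSeq's on that build.

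CPM used the library total. In R 4.3.3, the chi-square test and edgeR 4.0.16 took rounded counts, after filterByExpr (which left 14998 genes) and with TMM scaling. DESeq2 1.42.0 gave only the alternative size factors, from rounded counts before that filter. Per-gene p-values were adjusted by the Benjamini-Hochberg method over all genes tested. Differences between members used exact sign-flip permutation over 64 patterns (Edn3 set to at least 3 counts). Relations used exact permutation over 720 pairings. The spread tests were also run on simulated counts that varied less between cultures than these data do. That run does not show their power here. Named genes were the members, the highest gene of each pathway class, those at most 3 counts everywhere, and the 3 most alike genes per member by Pearson's r of log2(TMM-scaled CPM + 0.5). Members and lists were chosen with earlier results of these data known. Alternatives were other scalings, pseudocounts, filters, thinning, rounding, list medians, no length scaling and leaving out each replicate. The labels give 1 group, so no conditions were compared.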

Additional observations from a re-analysis of the deposited data

Results flagged for a closer look

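Among 38 measures (the 5 members, 25 pathway genes and 8 marker list sums), the gap between the most extreme culture and its neighbour, divided by the range of the 6 cultures, exceeded Dixon's critical value of 0.625 in 4, where chance flags about 1 in 20, or 1.9 here. All 4 concern replicate 5. The ratio was 1 for Edn3, with 3 counts in replicate 5 and 0 in the others. With 0 in the others, any count gives a ratio of 1, so the rate of 1 in 20 does not apply to Edn3. The ratio was 0.752 for Gnai1, an inhibitory G protein subunit, at 46.9 CPM against 71.2 CPM in the next culture. The glial lineage sum gave 0.625, just above the critical value, at 4414 CPM against 5717 CPM. For the endothelial sum it was 0.713, at 141.6 CPM against 48.4 CPM.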

How the results depend on the processing

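For the main results, 123 alternative values were counted as the same, 48 as weaker, 1 as stronger and 6 as moved. For the others 156 were the same, 6 weaker and 2 reversed. The 123 include mean levels and numbers of genes, which carry no p-value of their own and were all counted as the same. Among them is the mean of Ednra, at 20.7 CPM with all libraries and 11.0 CPM without replicate 5. With no length scaling, the difference between Ednrb and Ednra was 3.19 (log2) and passed (exact sign-flip permutation, adjusted p = 0.0347). Leaving out single replicates gave differences (log2) of 0.95 to 1.18 for Ece1 over Ednrb, 3.35 to 4.50 for Ece1 over Ednra, 4.86 to 5.18 for Ece1 over Edn1 and 3.70 to 4.13 for Ednrb over Edn1. Over the limit for Edn3 the differences were 8.29 to 8.38 for Ece1, 7.15 to 7.35 for Ednrb, 3.88 to 4.98 for Ednra and 3.20 to 3.45 for Edn1. All of these lost the call because 5 libraries allow no p below 0.0625. The number of relations that passed, 1 of 15, was 0 with any 5 libraries. With 5 libraries there are too few pairings for a lone relation to pass the adjustment, so this loss does not show a weaker relation. The r of Ednra with the fibroblast list stayed between 0.971 and 0.999. The values for Ece1 with the fibroblast list (-0.84 to 0.29) and with the endothelial list (-0.94 to 0.11) changed sign without replicate 5, and that for Ece1 with the glial lineage list fell from 0.91 to 0.58; the cause was not tested. The mean of Ednra lay between 11.0 CPM without replicate 5 and 24.6 CPM without replicate 1. Genes varying beyond counting noise numbered 10118 to 11253 with a replicate left out and 13488 without the low-count filter. Edn1, at 42 to 100 counts, is the detected member that depth limits most, beside Ednra in replicate 1 at 26 counts. No paired analysis was possible because all samples belong to 1 group.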
